A study of Homo sapiens with 8 samples.

Results

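H2AFY (ENSG00000113648.16, now also named MACROH2A1) encodes macroH2A1, and the account below covers its alternative exons. The members are all skipped-exon events that the deposited tables list under this gene symbol, 19 of 82355 events in the MCF10A table and 17 of 98244 in the HMLE TWIST table. They make 23 different events, 13 of them listed for both lines, on 11 middle exons, in 1 gene of 13437. The gene was picked because its 91-nucleotide exon and neighbouring exons changed under emetine in these same libraries, so the values of the emetine contrasts are given as a description and without a p-value.

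RNA was sequenced from 2 human breast lines, MCF10A, which is non-tumorigenic, and HMLE TWIST, which is immortalised and overexpresses TWIST from a retrovirally integrated pBabe vector. Each line was grown for 24 hours with the solvent DMSO (control) or with emetine, an alkaloid that inhibits protein synthesis, at 10 µM, giving 4 groups of 2 libraries. The series text calls the replicates biological, but does not say how they were grown apart. The series as a whole is about a screen for small-molecule splicing regulators that act through RNA G-quadruplexes.

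The reads over splice junctions, summed over all listed events, came to 78412292 to 91259363 per library, with a read counted again in each event it supports. Both lines carry an epithelial label. Junction reads of the listed epithelial markers (CDH1, KRT5, ESRP1 and ESRP2, with no event listed for EPCAM) summed to 1881 to 1965 reads per 1000000 junction reads of the table (RPM below) in the MCF10A controls and to 1018 to 1076 under emetine. In the HMLE TWIST libraries the listed ones summed to 0.0219 to 0.276 RPM. No KRT5 event is listed there, and reads of the adhesion gene CDH1 lay at 0 to 0.0772 RPM. The mesenchymal markers (VIM, CDH2, FN1, ZEB1, SPARC and COL1A1) summed to 86.1 to 371 RPM in MCF10A, where CDH2 and COL1A1 have no listed event, and to 29015 to 50358 in HMLE TWIST. VIM, FN1, ZEB1 and SPARC have more listed events in HMLE TWIST, for VIM 18 beside 1 in MCF10A, while CDH1, ESRP1 and ESRP2 have fewer. The sums of the lines are therefore not on the same scale. In both lines the mesenchymal sum was lower in the emetine libraries, but the groups overlapped for ZEB1 in both lines and for CDH2 in HMLE TWIST. The part of these markers in the H2AFY values was not tested. The blood marker PTPRC, with no event listed in MCF10A, reached at most 0.0221 RPM in HMLE TWIST, and the endothelial marker PECAM1 has no listed event.

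MacroH2A1 is a histone H2A variant that carries a large macrodomain behind its histone fold and a linker. A pair of mutually exclusive exons encodes part of the ligand pocket of the macrodomain. The protein with the exon called 1.1 binds ADP-ribose and its relatives, while the protein with the exon called 1.2 does not. MacroH2A1.1 is known from differentiated cells and is often low in tumours, and the RNA-binding protein QKI and the helicases DDX5 and DDX17 have been described as acting on the choice.

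The gene lies on the minus strand of chromosome 5. In GRCh37, as the tables give it, the 100-nucleotide 1.2 exon spans 134688636 to 134688735 and the 91-nucleotide 1.1 exon spans 134686513 to 134686603, so that the 1.2 exon comes first in the direction of transcription. Both are coding and lie between exon 5 (134696187 to 134696297, 111 nucleotides) and exon 7 (134681658 to 134681747, 90 nucleotides). The introns are 7451 nucleotides from exon 5 to the 1.2 exon, 2032 between the exclusive exons and 4765 from the 1.1 exon to exon 7. The exon numbers follow the GENCODE 29 transcripts H2AFY-202, which holds the 1.1 exon, and H2AFY-217, which holds the 1.2 exon.

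**Figure D1:**
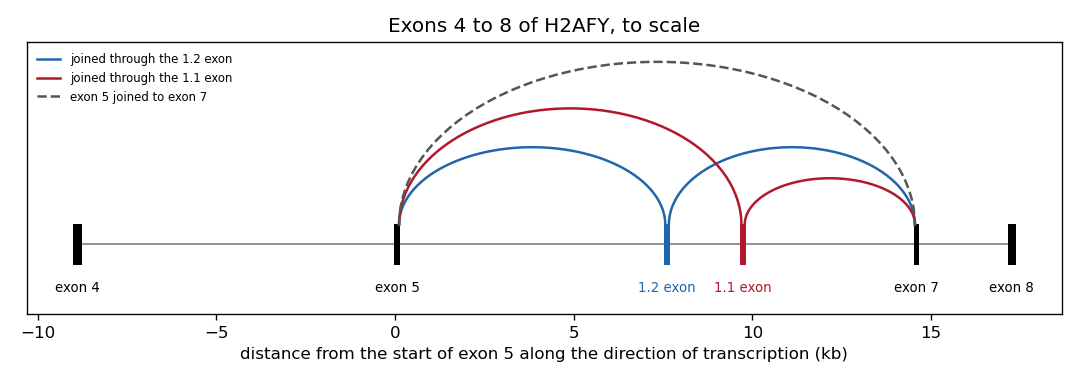
The horizontal axis is the distance in kilobases from the start of exon 5 in the direction of transcription, with exons as boxes drawn to scale. Arcs join the exons that are spliced through the 1.2 exon (blue), through the 1.1 exon (red) or from exon 5 straight to exon 7 (grey, dashed), and the 1.2 exon lies nearer to exon 5 than the 1.1 exon.

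The 2 exclusive exons are shown because they are alternative versions of the same stretch of protein. They are read 5′ to 3′ on the transcript strand from the GENCODE 29 transcripts (GRCh38, chromosome 5, 135350823 to 135350913 for the 1.1 exon and 135352946 to 135353045 for the 1.2 exon). Capitals mark the bases that are identical in a global alignment of the pair, 48 of 100 columns, with 9 columns of gaps.
1.1 exon: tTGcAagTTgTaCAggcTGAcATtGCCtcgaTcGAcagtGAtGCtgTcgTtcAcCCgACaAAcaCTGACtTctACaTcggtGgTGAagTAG
1.2 exon: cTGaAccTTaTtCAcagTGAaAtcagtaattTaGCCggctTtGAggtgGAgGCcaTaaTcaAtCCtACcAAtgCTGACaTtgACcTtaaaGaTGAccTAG

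Each exon length leaves a remainder of 1 after division by 3. Use of either exon alone therefore keeps the same downstream frame, while use of both, or of neither, changes it. With the annotated start codon the frame runs for 369 codons with the 1.1 exon and for 372 codons with the 1.2 exon. Joined directly to exon 5, exon 7 (GRCh38, chromosome 5, 135345968 to 135346057) is read in another frame and holds a stop codon, in capitals, that ends the frame after 223 codons.
exon 7: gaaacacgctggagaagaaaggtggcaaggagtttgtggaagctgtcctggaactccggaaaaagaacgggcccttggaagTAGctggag
This stop lies 181 nucleotides before the last exon junction of H2AFY-203, the annotated transcript without either exclusive exon, which GENCODE 29 lists as a processed transcript.

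The read counts below take in the junctions on both sides of the 1.1 and 1.2 exons. On the upstream side, the junction reads that tell the 3 forms apart cross from the same end of exon 5 into a different exon. With 15 bases on each side and the bases after the junction in capitals, these sequences are as follows.
exon 5 to 1.1 exon: ttccttggccagaagTTGCAAGTTGTACAG
exon 5 to 1.2 exon: ttccttggccagaagCTGAACCTTATTCAC
exon 5 to exon 7: ttccttggccagaagGAAACACGCTGGAGA

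Under DMSO the 1.2 exon was the more used of the pair in both lines, but the lines differed in the share of the 1.1 exon. The 1.1 exon had 933 and 899 reads on its junctions with exons 5 and 7 in the MCF10A libraries and 1729 and 1720 in HMLE TWIST. The 1.2 exon had 7913 and 7826 reads in MCF10A and 2275 and 2152 in HMLE TWIST. After dividing by effective length, the number of positions at which a read can support a form, the 1.1 exon made up 10.99% and 10.7% of the exclusive exons in MCF10A and 44.3% and 45.6% in HMLE TWIST. The means were 10.9% ± 0.179 (SD, n = 2) and 44.9% ± 0.881 (SD, n = 2), a ratio of 4.14, and the libraries of the lines did not overlap. For the first MCF10A library the share in uncorrected reads was 10.5% (Wilson 95% interval 9.92 to 11.2), and such intervals cover counting error only. Line and table cannot be told apart here, because each line has its own table.

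Under emetine both lines had fewer reads of the 1.1 exon and more reads that skip both exclusive exons. In MCF10A the 1.1 exon fell to 239 and 248 reads, the 1.2 exon to 3990 and 4374, and the reads from exon 5 straight to exon 7 went from 37 and 83 to 239 and 333. In HMLE TWIST the 1.1 exon fell to 280 and 275 reads, the 1.2 exon reached 2864 and 3433, and the exon 5 to exon 7 reads went from 14 and 7 to 171 and 124. In each line, every emetine library lay below every control library for the 1.1 exon and above every control library for the direct junction.

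As a share of the exclusive exons, the 1.1 exon was at 5.90% and 5.61% in the MCF10A emetine libraries and at 9.29% and 7.74% in those of HMLE TWIST. The means were 5.76% ± 0.211 (SD, n = 2) and 8.52% ± 1.09 (SD, n = 2). Relative to DMSO the share changed by -5.11 percentage points in MCF10A, to 0.530 of its control level, and by -36.4 points in HMLE TWIST, to 0.189 of its control level. Ordered from high to low, the group means ran HMLE TWIST under DMSO, MCF10A under DMSO, HMLE TWIST under emetine and MCF10A under emetine, and no 2 neighbours in this order had overlapping libraries. The lines were 34.1 points apart under DMSO and 2.76 points apart under emetine.

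Counting the transcripts with neither exon as a form of its own gives 3 shares per library. Transcripts with both exclusive exons were not counted as a form, and any of their reads that were counted fall in the shares of the exclusive exons. The form with neither exon made up 0.825% and 1.86% in MCF10A with DMSO and 10.1% and 12.6% with emetine. In HMLE TWIST it made up 0.681% and 0.353% with DMSO and 9.77% and 6.25% with emetine. The emetine mean was 8.46-fold the control mean in MCF10A, with 1.34% ± 0.730 and then 11.3% ± 1.72 (SD, n = 2 each), and 15.5-fold in HMLE TWIST, with 0.517% ± 0.232 and then 8.01% ± 2.49 (SD, n = 2 each). Both ratios rest on few control reads, 37 and 83 in MCF10A and 14 and 7 in HMLE TWIST. Without the second MCF10A control the ratio in that line was 13.7, and over the other libraries left out in turn, an alternative added after seeing the data, it lay in MCF10A between 6.11 and 9.37 and in HMLE TWIST between 11.8 and 22.7.

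The share of the 1.2 exon among the 3 forms moved in opposite directions in the lines. It went from 88.3% and 87.6% to 84.6% and 82.5% in MCF10A, and from 55.3% and 54.2% to 81.8% and 86.5% in HMLE TWIST. Under emetine the 1.2 share of the lines overlapped, with means of 83.5% ± 1.44 in MCF10A and 84.2% ± 3.29 in HMLE TWIST (SD, n = 2 each).

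**Figure D2:**
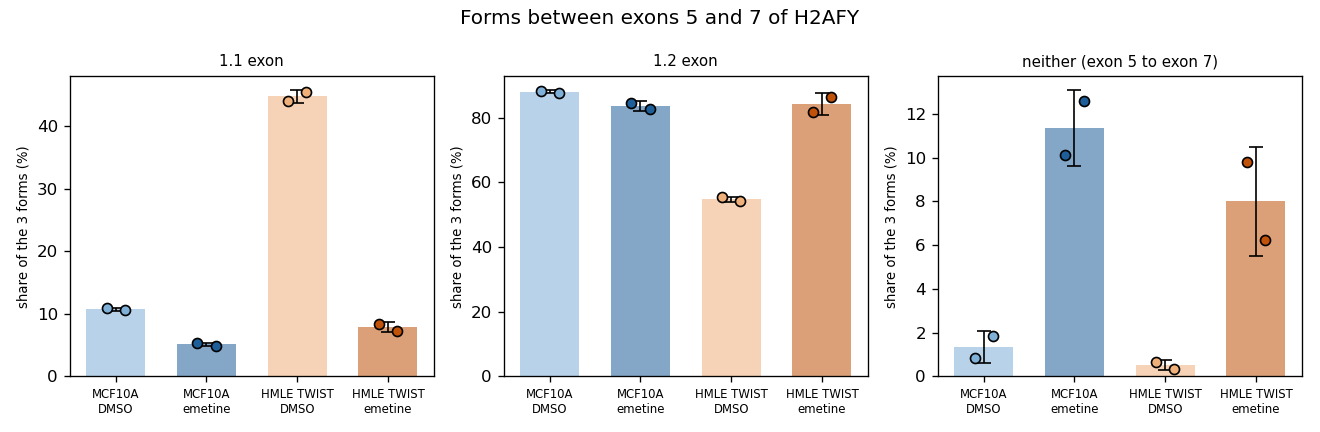
Vertical axes give the length-corrected share (%) of the 1.1 exon, the 1.2 exon and neither exon among the 3 forms between exons 5 and 7, with a different scale in each panel. Points are libraries, bars are means and error bars are the SD of 2 libraries. In HMLE TWIST the 1.1 share went from a mean of 44.7% to 7.82%, and in both lines the form with neither exon was higher in every emetine library.

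Levels in RPM show how the forms moved against the rest of the RNA. The 1.1 exon was at 11.9 and 10.8 RPM in MCF10A with DMSO and at 2.90 and 2.97 with emetine. In HMLE TWIST it was at 18.9 and 19.1 with DMSO and at 3.09 and 3.04 with emetine. Its emetine mean was thus 0.259 of the control mean in MCF10A and 0.161 in HMLE TWIST. The emetine means of the lines, 2.93 and 3.06 RPM, were 0.129 RPM apart, each scaled to its own table.

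The 1.2 exon went in MCF10A from 100.9 and 93.9 down to 48.4 and 52.4 RPM, and in HMLE TWIST from 24.9 and 23.9 up to 31.6 and 37.9. Exon 8 (134678950 to 134679124, 175 nucleotides), which lies downstream of all 3 forms, stands for their summed level. It went in MCF10A from 113.7 and 106.3 to 57.2 and 61.7 RPM, 0.541 of the control level. In HMLE TWIST it was at 44.8 and 43.3 with DMSO and 41.0 and 46.8 with emetine, and these libraries overlapped. The 1.1 exon was thus reduced further than exon 8 in both lines. The ratio of emetine to control for the 1.2 exon was 0.517 in MCF10A, close to that of exon 8, and 1.42 in HMLE TWIST, above the 0.996 of exon 8. In RNA from whole cultures, fewer cells that make a form and less of it per cell cannot be told apart.

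**Figure D3:**
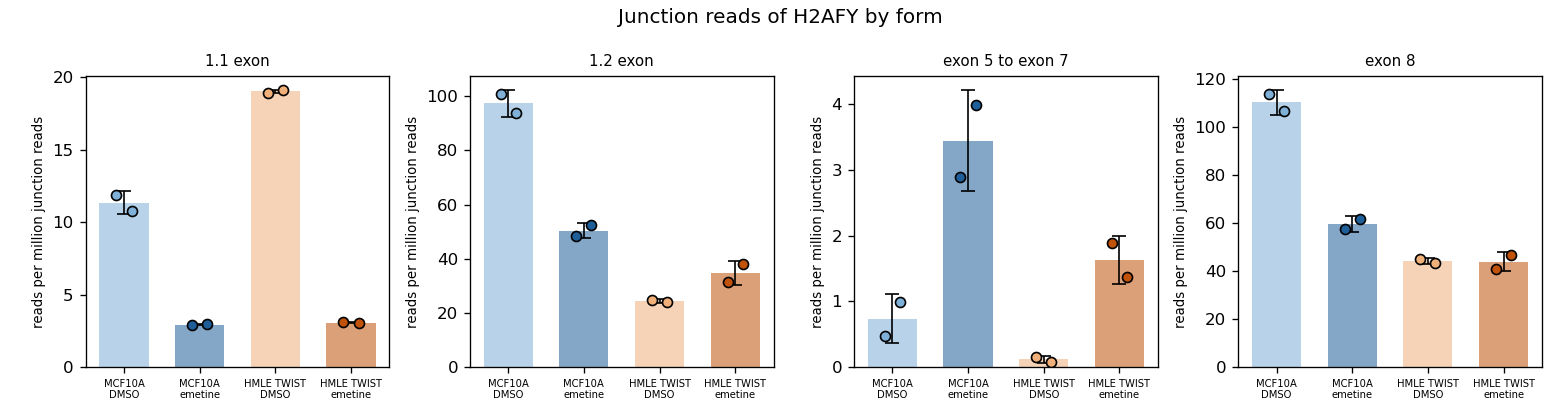
Vertical axes give junction reads in RPM (scaled to the junction reads of the table of each line) for the 1.1 exon, the 1.2 exon, the direct exon 5 to exon 7 junction and exon 8, with a different scale in each panel. Points are libraries, bars are means and error bars are the SD of 2 libraries. The 1.1 exon was at 2.90 to 3.09 RPM in all 4 emetine libraries, and exon 8 was lower in both MCF10A emetine libraries than in the controls, while its HMLE TWIST groups overlapped.

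The deposited tables set each exon against the junction that skips it, and the inclusion level runs from 0 (always skipped) to 1 (always included). Between exons 5 and 7 the level of the 1.1 exon was 0.930 and 0.850 in MCF10A with DMSO and 0.344 and 0.281 with emetine, a change of -0.58. In HMLE TWIST it was 0.985 and 0.992 with DMSO and 0.462 and 0.537 with emetine, a change of -0.49. This level compares the 1.1 exon with the use of neither exon and leaves the 1.2 exon out. It was therefore near 1 in the HMLE TWIST controls, although the 1.1 exon was there the less used of the pair.

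The 1.2 exon, measured against the same exon 5 to exon 7 reads, had a level of 0.991 and 0.979 in MCF10A with DMSO and 0.893 and 0.868 with emetine, a change of -0.10. In HMLE TWIST it went from 0.988 and 0.994 to 0.893 and 0.933, a change of -0.08. In HMLE TWIST the level of the 1.2 exon thus fell while its reads rose, because the skipping reads rose more.

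Of the 19 MCF10A events, 12 had enough reads to be tested, meaning at least 20 in every library and at least 10 of the rarer form, and 3 of them met the call rule (adjusted p under 0.05 and a change of level of at least 0.1). Over all tested MCF10A events that share was 13.8%. The called events were the 1.1 and 1.2 exons between exons 5 and 7, which were lower (5.48% over all events), and exon 5 between exons 2 and 7, which was higher (8.37%). The 1.2 exon lay just past the minimum change. Its change was -0.0988 without the first control, -0.0920 without the second emetine library and -0.0561 with no length correction, and in each of these cases 2 events were called. In HMLE TWIST 10 of 17 events were tested and 2 were called, the 1.1 exon as lower and exon 5 between exons 2 and 7 as higher, beside 15.0% over all tested events (8.32% lower and 6.66% higher). In MCF10A 10 of the 12 tested events had groups that did not overlap (67.4% over all events), and in HMLE TWIST 9 of 10 (69.9%). The gene was chosen on these contrasts and its events share reads, so nothing is read from these counts.

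**Figure D4:**
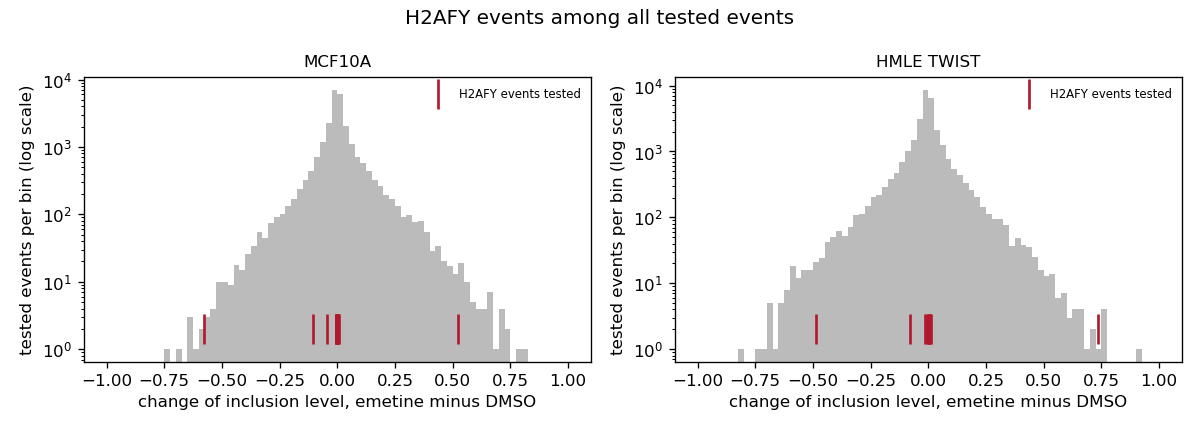
The horizontal axis is the change of inclusion level, emetine minus DMSO, and the vertical axis is the number of tested events per bin on a log scale, for MCF10A (left) and HMLE TWIST (right). Red marks are the tested H2AFY events, 12 in MCF10A and 10 in HMLE TWIST. Most lie near 0, with the 1.1 exon between exons 5 and 7 at -0.58 and -0.49 and exon 5 between exons 2 and 7 at 0.53 and 0.73.

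The rise of exon 5 rests on the same reads as the skipping of both exclusive exons. Between exons 2 and 7 its level went in MCF10A from 0.301 and 0.521 to 0.896 and 0.977 and in HMLE TWIST from 0.159 and 0.0753 to 0.905 and 0.799. Its inclusion reads were 37, 85, 241 and 334 in the MCF10A libraries, controls first, beside 37, 83, 239 and 333 reads from exon 5 to exon 7. In HMLE TWIST they were 14, 7, 172 and 127, beside 14, 7, 171 and 124. In the events with the most reads, between exon 4 and the 1.2 exon, exon 5 was at 0.993 to 0.999 in all 8 libraries, with changes of 0.00128 in MCF10A and 0.00422 in HMLE TWIST.

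**Figure D5:**
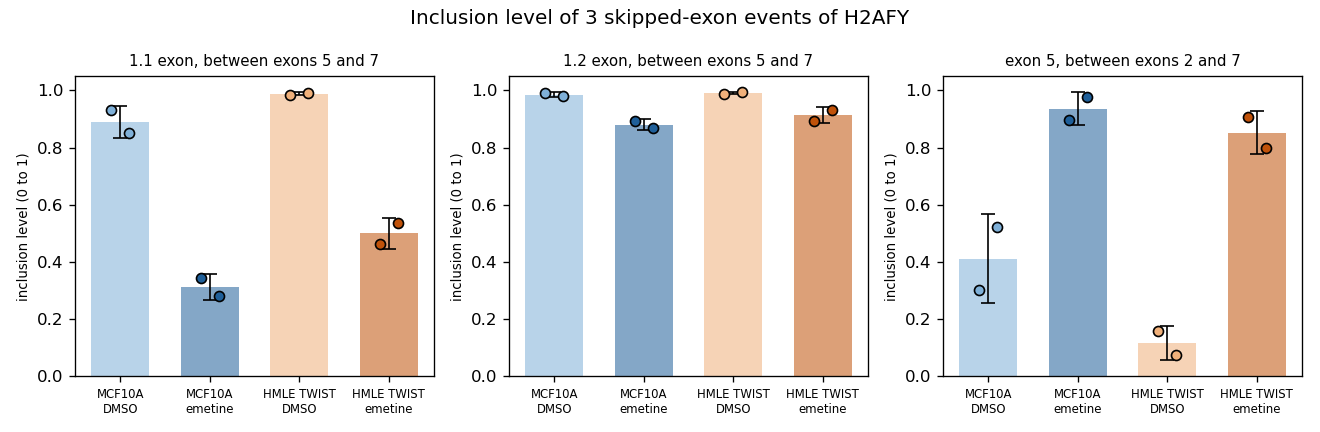
Vertical axes give the inclusion level (0 to 1) of the 1.1 exon between exons 5 and 7, the 1.2 exon between exons 5 and 7, and exon 5 between exons 2 and 7. Points are libraries, bars are means and error bars are the SD of 2 libraries. The 1.1 exon lay between 0.281 and 0.537 in the emetine libraries and between 0.850 and 0.992 in the controls, while exon 5 in this event was higher in every emetine library.

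The reads that skip exon 5 in that event run from exon 2 (134724612 to 134724816) straight to exon 7, as in the short coding transcript H2AFY-204, whose frame runs for 200 codons. They numbered 43 and 39 in MCF10A with DMSO and 14 and 4 with emetine. In HMLE TWIST they numbered 37 and 43 with DMSO and 9 and 16 with emetine. As a share of the reads that leave exon 2 for exon 3 or exon 7, they went in MCF10A from 1.18% and 0.997% to 0.663% and 0.169% and in HMLE TWIST from 2.01% and 2.68% to 0.569% and 0.880%. The emetine libraries of both lines lay below their controls, so this junction became rarer while the exon 5 to exon 7 junction became more frequent.

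A longer form of exon 5 (134696187 to 134696470, 284 nucleotides) occurs in the decay-annotated transcript H2AFY-210, in which the frame ends after 165 codons. Its event between exons 4 and 7 counts 37, 83, 239 and 333 inclusion reads in MCF10A and 15, 7, 171 and 124 in HMLE TWIST, controls first. These are the exon 5 to exon 7 reads again, but for 1 read, so the event gives no separate value for the extension. For exon 7 between exons 5 and 9, listed only for MCF10A and not tested, the inclusion reads of 42, 95, 231 and 314 were near the same numbers.

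The MCF10A table allows the junctions on each side of the 1.1 exon to be counted separately. Reads from exon 5 into the 1.1 exon numbered 479 and 425 with DMSO and 69 and 76 with emetine. Reads from the 1.1 exon into exon 7 numbered 467 and 487 with DMSO and 174 and 178 with emetine. The sides were close to equal under DMSO, whereas under emetine the upstream side had fewer than the downstream side in both libraries. The MCF10A table also has a longer form of the 1.1 exon (134686504 to 134686603), listed only as a flank of the shorter exon 5. It begins at the same acceptor, so the upstream reads do not tell it from the 91-nucleotide exon. Its reads into exon 7 were not counted, because it is the middle exon of no listed event. No listed event counts reads from the 1.2 exon into the 1.1 exon. Whether some of the downstream reads come from transcripts with both exclusive exons was therefore not tested. For the 1.2 exon the upstream side had 3712 and 3602 reads with DMSO and 1929 and 2212 with emetine, and the downstream side 4201 and 4224, then 2061 and 2162.

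By upstream reads alone the 1.1 exon made up 11.4% and 10.6% of the exclusive exons in MCF10A with DMSO and 3.45% and 3.32% with emetine. By downstream reads alone it made up 10.0% and 10.3% with DMSO and 7.79% and 7.61% with emetine. The fall is present on both sides, with changes of -7.60 points upstream and -2.47 points downstream. The level of the 1.1 exon between exons 4 and 7, listed for MCF10A only, went from 0.996 and 1 to 0.968 and 0.940. That event counts as skipping only the reads from exon 4 straight to exon 7, of which there were at most 6 in a library.

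Most other exons of the gene were included almost always. Exon 8 had at most 15 skipping reads in a library against 3717 or more inclusion reads. Exon 3 (134705726 to 134705832) and exon 4 (134705096 to 134705293) had at most 6 skipping reads in any listed event and were not tested. Exon 2 was skipped by 21 and 19 reads in MCF10A with DMSO and 2 and 4 with emetine, and by 12 and 15 and then 4 and 4 reads in HMLE TWIST, so it had fewer skipping reads in every emetine library. These reads are shared with the event of a longer form of exon 2 (375 nucleotides, to 134724986). In HMLE TWIST, exon 7 between exons 2 and 8 had at most 2 skipping reads in a library against 1921 or more inclusion reads, and between exons 4 and 9 it had too few reads for a level.

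Exon 5 starts at either of a pair of acceptor sites that lie 3 bases apart, in capitals below (GRCh38, chromosome 5, 135360497 to 135360607), and the choice removes a codon without changing the frame.
exon 5: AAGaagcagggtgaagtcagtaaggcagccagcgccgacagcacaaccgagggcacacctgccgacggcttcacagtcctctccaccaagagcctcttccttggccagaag
The shorter form took 60.5% and 61.2% of the reads from exon 4 in MCF10A with DMSO and 59.2% and 59.4% with emetine. In HMLE TWIST it took 58.4% and 57.8% with DMSO and 59.6% and 58.4% with emetine. All 8 libraries thus lay between 57.8% and 61.2%, and the HMLE TWIST groups were less than their own spread apart. The mean changed by -1.57 points in MCF10A, next to -5.11 points for the 1.1 share.

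Between the lines, events were compared where both tables list the same exon and flanks. Under DMSO 1 of 6 tested H2AFY events was called, exon 5 between exons 2 and 7, at 0.411 ± 0.156 in MCF10A and 0.117 ± 0.0593 in HMLE TWIST (SD, n = 2 each), beside 6.62% over all events. Under emetine 1 of 8 was called, the 1.1 exon between exons 5 and 7, at 0.312 ± 0.0446 in MCF10A and 0.4995 ± 0.0535 in HMLE TWIST (SD, n = 2 each), beside 9.82%. With limma neither was called, but over all genes limma called only 36 of 19301 tested events under DMSO and 0 of 28434 under emetine. In the line-by-emetine interaction 0 of 9 tested H2AFY events were called in the quasi-binomial model, beside 1.88% over all events. Of the 9, 1 had an adjusted p under 0.05 in that model, with a difference of changes below the minimum of 0.1. Limma called 0 of the 31825 events of any gene in the interaction, so its result says nothing about H2AFY. The larger fall of the 1.1 share in HMLE TWIST is a comparison of the 1.1 with the 1.2 exon, which no listed event makes, and the difference of the falls was not tested.

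The transcript strand of neither exclusive exon holds a GGG, the building block of RNA G-quadruplexes, searched for as GGG on both strands with overlaps counted. The opposite strand of the 1.1 exon holds 1. Of 1129 different internal 91-nucleotide exons of GENCODE 29 coding transcripts 59.2% hold a GGG on the transcript strand, and of 1246 with 100 nucleotides 62.4%. ACTAA, the DNA spelling of a core of the QKI recognition element, occurs in neither exon on either strand, and in 4.07% and 5.14% of the exons of those lengths on the transcript strand. Introns were not searched.

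Of the 5 genes described or proposed as acting on the exclusive exons (QKI, MBNL1, MBNL2, DDX5 and DDX17), 3 had a changed exon of their own in MCF10A and 2 in HMLE TWIST. In MCF10A 5 of their 19 tested events were called, all higher, in MBNL1, MBNL2 and DDX17, beside 13.8% called and 8.37% called higher over all tested events. In HMLE TWIST 3 of 17 were called, all higher, in MBNL1 and MBNL2, beside 15.0% and 6.66%. The MBNL2 calls fall on different exons in the lines. Limma called 4 and 2 of the tested events. The list had a median change of 0.0223 in MCF10A, beside -0.000168 over all tested events, and of 0.0385 in HMLE TWIST, beside -0.00315. The 54-nucleotide exon of MBNL1 (chromosome 3, 152164493 to 152164546), a splicing factor of the muscleblind family, rose in MCF10A from 0.597 ± 0.0321 to 0.904 ± 0.0116 and in HMLE TWIST from 0.198 ± 0.0104 to 0.560 ± 0.0221 (SD, n = 2 each). Of the called MBNL1 events, this exon had the largest absolute change in each line and is given for that reason. Its adjusted p, which does not allow for that choice, was 4.38e-28 and 4.15e-41 in the quasi-binomial model and 0.0215 and 0.0214 with limma. A 231-nucleotide exon of DDX17 (chromosome 22, 38885233 to 38885463) was at 0.0133 and 0.00774 in MCF10A with DMSO and at 0.395 and 0.248 with emetine (adjusted p 1.45e-62 in the quasi-binomial model, 0.0145 with limma).

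Among other H2A variants (H2AFY2, H2AFZ, H2AFV, H2AFX and H2AFJ) no event was called in the quasi-binomial model or with limma, of 4 tested in MCF10A and 7 in HMLE TWIST (13.8% and 15.0% over all events), with 0 and 1 at an unadjusted p under 0.05. These events come from 2 and 1 of the 5 genes and are too few to set against those shares. Among 21 genes that write, read or erase ADP-ribose, the ligand of macroH2A1.1, 5 of 54 tested events were called in MCF10A, 3 higher and 2 lower, beside 13.8% over all events. In HMLE TWIST 10 of 45 were called, 1 higher and 9 lower, beside 15.0% over all events (8.32% lower). Limma called 2 and 7. The list had a median change of -0.00647 in MCF10A, beside -0.000168 over all tested events, and of -0.0186 in HMLE TWIST, beside -0.00315. The 97-nucleotide exon of ADPRHL2, an ADP-ribose hydrolase (chromosome 1, 36556845 to 36556941), fell in both lines. Its level went in MCF10A from 0.996 and 0.996 to 0.763 and 0.820 and in HMLE TWIST from 0.985 and 0.994 to 0.782 and 0.827 (adjusted p 2.75e-18 and 5.8e-26 in the quasi-binomial model, 0.0145 and 0.0131 with limma).

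CHD1L, a chromatin remodeller with a macrodomain, had a 74-nucleotide exon that went in MCF10A from 0.885 and 0.940 to 0.837 and 0.787 and in HMLE TWIST from 1 and 0.982 to 0.886 and 0.810. A 71-nucleotide exon of PARP8 rose in both lines, in MCF10A from 0.659 ± 0.0628 to 0.836 ± 0.0350 and in HMLE TWIST from 0.563 ± 0.0878 to 0.914 ± 0.00118 (SD, n = 2 each). The other genes with a call were PARP12 and TNKS (both higher) in MCF10A and PARP3, PARP6, PARP12, OARD1 and GDAP2 (all lower) in HMLE TWIST. The PARP12 calls fall on different exons in the lines. Limma's adjusted p was 0.149 for CHD1L, 0.0965 for PARP8 and 0.124 for TNKS in MCF10A, and 0.0783 for PARP3 and 0.0726 for PARP6 in HMLE TWIST.

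Of 9 chromatin proteins linked to histone variants (ATRX, DAXX, SUPT16H, SSRP1, HIRA, ANP32E, SRCAP, EP400 and INO80), 3 of 25 tested events were called in MCF10A, all higher, in ATRX, DAXX and SUPT16H, beside 13.8% over all events. Limma's adjusted p was 0.0835 for DAXX, which limma did not call. In HMLE TWIST 1 of 29 was called, beside 15.0%, an 84-nucleotide exon of EP400 that rose from 0.880 and 0.845 to 0.995 and 0.996. The ATRX exon of 74 nucleotides, in a remodeller known to bind macroH2A1, was at 0.0795 and 0.0409 in MCF10A with DMSO and at 0.445 and 0.251 with emetine. This list had a median change of 0.00187 in MCF10A, beside -0.000168 over all tested events, and of 0.000320 in HMLE TWIST, beside -0.00315.

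The 5 genes whose exon levels lay closest to those of the 1.1 exon between exons 5 and 7 were PCGF6, BORA, HNRNPH1, SLC37A4 and NAGLU. Likeness was the root mean square difference of level over the 8 libraries among 31816 events of other genes, so a small value means a similar level in every library. It was 0.0628 for the 28-nucleotide exon of PCGF6 (chromosome 10, 105093682 to 105093709), 0.0891 for BORA, 0.0906 for the 92-nucleotide exon of HNRNPH1 (chromosome 5, 179046270 to 179046361), 0.0931 for SLC37A4 and 0.0954 for NAGLU. The PCGF6 exon was at 0.932 and 0.832 in MCF10A with DMSO and 0.385 and 0.335 with emetine, then at 0.932 and 0.857 in HMLE TWIST with DMSO and 0.446 and 0.465 with emetine. These genes were selected for the pattern, which makes the values a description.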

How the data were processed

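Junction reads came from stranded, paired-end polyA libraries, per the labels' protocols. The submitters' processing notes name GRCh37 and STAR 2.5.3a. The rMATS version and annotation are not given in the sources used here. The deposited tables, 1 for each line, hold the replicates' junction read counts as a pair in a cell. The authors' deposited p-value, false discovery rate and difference score were not used. DMSO was taken as the first sample and emetine as the second, following the order in the table names, and the first value in a cell as replicate 1.

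Inclusion levels are counts over effective length (99 for skipping). Each event was fitted with a quasi-binomial logistic model (Python 3.11.15, numpy 2.4.6). Dispersions were moderated by limma 3.58.1 (R 4.3.3) to 1 shared value (1.84 to 2.00) per fit, with Benjamini-Hochberg adjustment over every tested event. The model was tested on simulated data in which all events had the same spread, near the shared value. Such data cannot show whether calls hold where events differ in spread. Limma on log2 odds, with 0.5 added to each count, was the other test. The planned share from skipping counts alone could not be formed, so the 1.1 and 1.2 exons were counted from the inclusion reads of their events between exons 5 and 7, and junctions on each side by subtracting events. All 19 exon intervals of the gene matched a GENCODE 29 (GRCh38) exon by length and spacing, and no coordinates were converted.

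Members and lists were chosen with earlier results of these data known. Named are all middle exons of the listed H2AFY events, list genes with a call, and the 5 genes nearest in level. Where values are given for a list gene, they are those of its called event of largest absolute change. The main fits did not pair samples by replicate number, and replicate differences correlated at 0.000787 to 0.0321 over events. A correlation over all events cannot show whether replicates were handled in pairs. Of the epithelial markers planned, 1 is not reported here.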

Additional observations from a re-analysis of the deposited data

Results flagged for a closer look

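By share of the 3 forms and by reads, the 1.2 exon moved in opposite directions in the lines. Its share of the 3 forms changed by -4.39 percentage points in MCF10A and by 29.4 points in HMLE TWIST, and its reads, scaled to 1000000 junction reads of the table, changed by -47.1 in MCF10A and by 10.3 in HMLE TWIST. In each case both emetine libraries of a line lay on the same side of both controls. Other measures of the 1.2 exon moved the same way in both lines. Its inclusion level between exons 5 and 7 changed by -0.105 in MCF10A and by -0.0777 in HMLE TWIST. Of the exclusive exons alone, the share of the 1.1 exon changed by -5.11 and -36.4 points, so that of the 1.2 exon rose in both lines. The difference between the lines in share and reads was not tested, and the gene was chosen on these contrasts.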

How the results depend on the processing

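All adjusted p-values rest on the shared dispersion, with 2 libraries in a group. A replicate block changed none of the counts of called H2AFY events (3 in MCF10A, 2 in HMLE TWIST, 1 between lines under DMSO, 1 under emetine and 0 in the interaction). Leaving out a library gave 2 to 3, 2 to 2, 0 to 2, 1 to 2 and 0 to 1. Under DMSO the count between lines was 2 without the first control of either line and 0 without the second of either. It was 0 with the event's own dispersion and 0 with limma, which called 36 events over all genes. Under emetine the count was 0 with limma, which called 0 events over all genes, and 2 without the first emetine library of either line. With no length correction the MCF10A count was 2. The interaction gave 1 with no length correction and 1 without the first emetine library of either line. Of the 115 alternatives, 89 were labelled the same and 26 moved. A change of level or share was labelled the same when within the larger SD of its groups, and a count when within a set ratio of the main count. A count of 2 beside 3 was thus labelled the same, although an event had lost its call.

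With no length correction, an alternative in the plan, the change of the 1.1 exon was -0.475 in MCF10A and -0.339 in HMLE TWIST, that of the 1.2 exon -0.0561 and -0.0409, and that of exon 5 in HMLE TWIST 0.00212. Other flanks changed the values because they set another junction against the exon: between exons 4 and 7 the 1.1 exon changed by -0.0441 in MCF10A, the 1.2 exon by -0.00397 and -0.00614 and exon 5 by -0.00671 and -0.0121, and between exons 2 and 7 exon 5 changed by 0.525 and 0.735. The 1.1 share in MCF10A changed by -7.60 points from upstream and -2.47 points from downstream junctions. With no length correction, chosen after seeing the data, it changed by -4.92 points there and by -35.6 points in HMLE TWIST. Leaving out a library kept the change of the 1.1 exon between -0.617 and -0.538 in MCF10A and between -0.527 and -0.451 in HMLE TWIST, that of the 1.2 exon between -0.117 and -0.0920 and between -0.0974 and -0.0581, that of exon 5 between 0.000464 and 0.00209 and between 0.00298 and 0.00547, and that of the 1.1 share between -5.26 and -4.96 and between -37.2 and -35.7 points.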
